A study of Mus musculus with 20 samples.

Results

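Nuclear genes for the respiratory chain were followed in microglia and astrocytes sorted from mouse brain after lateral fluid percussion injury (FPI) or sham injury. A gene was a member when its symbol began with Nduf, Uqcr, Cox4 to Cox8 or Atp5, or was Sdha, Sdhb, Sdhc or Sdhd, and pseudogene symbols ending in -ps were left out. This gave 93 of the 39017 rows of the count table: 36 complex I subunits, 7 complex I assembly factors (the Ndufaf genes), 4 complex II subunits, 8 complex III subunits, 20 complex IV genes and 18 complex V genes. No measured value entered the choice. Ndufa4 and Ndufa4l2 were placed with complex IV, where the Ndufa4 protein is found in spite of its name. Atp5s and Atp5sl share the prefix but do not encode subunits of the synthase, and Atp5l2 is annotated as a processed pseudogene.

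The chain carries electrons from NADH (complex I) and succinate (complex II) through complex III to oxygen at complex IV, and the proton gradient built on the way drives ATP synthesis at complex V. Most subunits are encoded in the nucleus and imported, while a small set is encoded by mitochondrial DNA, so a working complex needs products of both genomes. Astrocytes and microglia both use oxidative phosphorylation, and activated microglia are known to shift between it and glycolysis.

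The mice were adult male C57BL/6 animals by the labels (C57BL/6J in the methods of the study) without a stated transgene, and the ipsilateral (left) forebrain was taken on day 7. Sham mice had the craniectomy, the anesthesia and the connection to the device without the fluid pulse, so both arms share the surgery. Microglia were gated as CD11b-positive cells with intermediate CD45, a gate that does not by itself separate microglia from all infiltrating myeloid cells, and astrocytes were gated on the surface antigen ACSA-2. The 20 RNA-seq libraries comprised 5 each of sham microglia, FPI microglia, sham astrocytes and FPI astrocytes, every one from 1 cell type of 1 animal. By library name, 3 animals gave both a microglia and an astrocyte library. FPI astrocyte libraries 2 and 5 carry the same animal number, and the name of library 5 ends in the letter used for microglia, although its label says astrocyte. Its expression followed the label, with astrocyte markers at 13626 and microglia markers at 134 summed CPM (counts scaled to a common library total).

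The smallest library held 5623350 counts on genes and the largest 13110900, rounded to 6 digits. Microglia markers summed to 15469 to 24540 CPM in the microglia libraries and to 29.7 to 134 CPM in the astrocyte libraries. The astrocyte libraries also held markers of other cells. Besides astrocyte markers at 8982 to 28084 CPM, they held oligodendrocyte markers at 1190 to 13652 CPM. They also held markers of oligodendrocyte precursors at 67.4 to 1221 CPM and of blood vessel cells (endothelium and mural cells) at 234 to 4081 CPM. In sham astrocyte library 4 the oligodendrocyte markers (13652 CPM) exceeded the astrocyte markers (8982 CPM). In sorted bulk RNA, fewer cells of a type and less RNA per cell cannot be told apart.

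Promoters are shown for Cox7a2l and Atp5k, a called gene and the next in rank in the microglia comparison, and for Sdha and Atp5b, the catalytic subunits of complexes II and V, so that members with and without known mitochondrial motifs can be compared. Each is the RefSeq window of 300 bases on GRCm38.p6, from 250 before to 50 after the transcription start, written 5′ to 3′ on the gene's own strand. Capitals mark matches, on either strand, to GCGCA and GCGC with any 1 base between them (the NRF1 motif), CCGGAAG (the ETS motif bound by GABP) or GCCATNTTG (the YY1 motif). These factors are known regulators of nuclear genes for mitochondrial proteins.

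Sdha, the catalytic complex II subunit, chr13:74350191-74350490, minus strand: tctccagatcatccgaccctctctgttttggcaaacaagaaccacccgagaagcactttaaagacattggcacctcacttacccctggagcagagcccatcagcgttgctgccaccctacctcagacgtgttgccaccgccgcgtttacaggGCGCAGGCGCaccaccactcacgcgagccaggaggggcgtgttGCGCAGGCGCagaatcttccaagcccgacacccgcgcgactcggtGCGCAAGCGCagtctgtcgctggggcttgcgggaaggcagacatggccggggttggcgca
Cox7a2l, a complex IV and supercomplex factor, chr17:83514284-83514583, minus strand: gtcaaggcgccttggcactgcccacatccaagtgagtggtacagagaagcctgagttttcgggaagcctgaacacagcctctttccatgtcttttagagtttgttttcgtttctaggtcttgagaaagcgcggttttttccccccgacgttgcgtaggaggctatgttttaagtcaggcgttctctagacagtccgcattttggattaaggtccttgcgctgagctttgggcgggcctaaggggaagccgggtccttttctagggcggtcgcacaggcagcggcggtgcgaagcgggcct
Atp5b, the catalytic complex V subunit, chr10:128083057-128083356, plus strand: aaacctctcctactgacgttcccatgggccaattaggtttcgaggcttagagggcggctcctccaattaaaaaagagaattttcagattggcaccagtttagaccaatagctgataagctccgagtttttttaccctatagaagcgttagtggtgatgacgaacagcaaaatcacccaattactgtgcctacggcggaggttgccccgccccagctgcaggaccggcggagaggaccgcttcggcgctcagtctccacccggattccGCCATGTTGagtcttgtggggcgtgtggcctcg
Atp5k, a membrane subunit of complex V, chr5:108434350-108434649, minus strand: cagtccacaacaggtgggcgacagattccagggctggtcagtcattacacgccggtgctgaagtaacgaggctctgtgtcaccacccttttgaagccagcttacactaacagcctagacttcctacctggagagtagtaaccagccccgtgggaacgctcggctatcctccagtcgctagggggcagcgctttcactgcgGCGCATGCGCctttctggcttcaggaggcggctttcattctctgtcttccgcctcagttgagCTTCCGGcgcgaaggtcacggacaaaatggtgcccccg

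The Sdha window held 3 NRF1 matches, the Atp5k window an NRF1 and an ETS match, and the Atp5b window a YY1 match downstream of the start, while the Cox7a2l window, whose RefSeq start lies inside the longer Ensembl gene model, held none of the motifs. Windows could be matched, by Ensembl identifier or else by symbol, for 73 of the 93 members. At least 1 motif was found in 40 of them (54.8%), against 16.1% of 27025 genes with windows of the same length. The NRF1 motif was in 19 member windows (26%, all genes 5.19%), the ETS motif in 17 (23.3%, all genes 9.93%) and the YY1 motif in 10 (13.7%, all genes 2.9%). No member window had overlapping matches of different motifs. By complex, NRF1 matches were found in 7 of 32 complex I, 2 of 3 complex II, 1 of 14 complex IV and 6 of 13 complex V windows, and YY1 matches in 7 of 32 complex I windows but in 1 of 14 complex IV windows. These are letter matches, with no measurement of binding.

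Members took a small share of each library, and the share was larger in astrocytes. They held 0.204% ± 0.00812 (SD, n = 5) of counts on genes in sham microglia, 0.232% ± 0.0393 in FPI microglia, 0.392% ± 0.0772 in sham astrocytes and 0.367% ± 0.0439 in FPI astrocytes. The range in sham microglia (0.196% to 0.216%) lay inside that of FPI microglia (0.179% to 0.280%), whereas neither microglia group reached the lowest astrocyte library (0.296%). Complex I and complex V genes made up most of it, with 0.0660% and 0.0658% in sham microglia and 0.127% and 0.129% in sham astrocytes. Complex IV was the complex whose sham and FPI microglia means stood furthest apart, at 0.0258% ± 0.000845 and 0.0365% ± 0.00764.

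**Figure D1:**
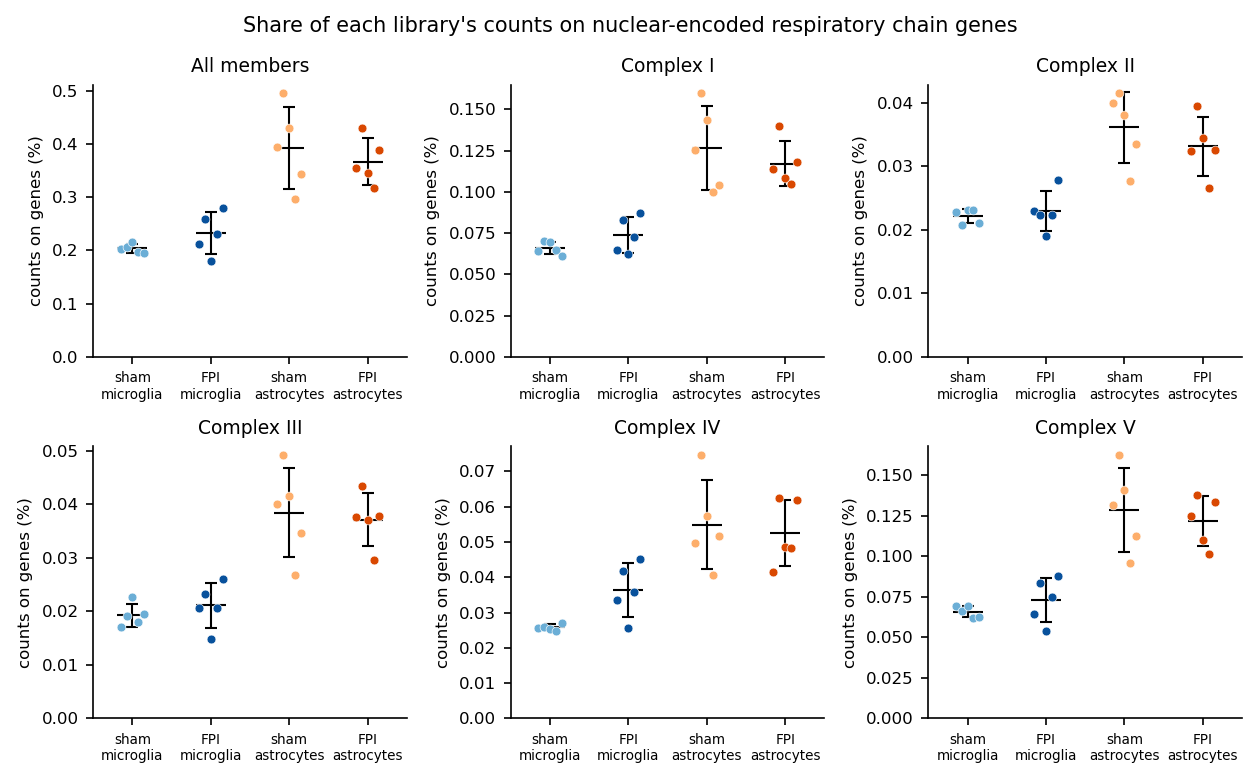
Share of each library's counts on genes that fell on all 93 members and on the members of each complex (y axis, percent), by group (x axis). Points are libraries, and bars give the mean and SD of 5. Astrocyte libraries sit above the microglia libraries in the panel for all members, and FPI microglia spread wider than sham microglia (0.179% to 0.280% against 0.196% to 0.216%).

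Levels were compared between genes only as CPM per kilobase of exon, over the union of each gene's exons. With the longest transcript instead, the length falls from 1550 to 765 bases for Cox4i1. It falls from 4237 to 1916 bases for Atp5b and from 3135 to 2674 for Atp5a1. That raises Cox4i1 and Atp5b more than Atp5a1, so the order given here holds for the union of exons only. Atp5a1, the alpha subunit of the synthase, had the highest mean level in sham microglia (66.5 ± 5.06 CPM per kb, SD, n = 5), sham astrocytes (114 ± 18.8) and FPI astrocytes (109 ± 15.1). In FPI microglia it stood at 61.9 ± 12.8 CPM per kb beside Cox4i1, the common form of complex IV subunit 4, at 62.5 ± 14.6, and these do not differ beyond their spread. Cox7a2l ranked 9 of the members in sham microglia (26.8 CPM per kb) and 4 in FPI microglia (42.3 ± 11.1), but 60 in sham astrocytes (12.9) and 48 in FPI astrocytes (17.1). Atp5b was at 78.5 ± 15.8 CPM per kb in sham astrocytes, next to Cox4i1 at 72.6 ± 15.04 and Cox8a at 72.4 ± 28.8, an order within the spread.

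To ask how the respiratory chain genes respond to injury in each cell type, FPI was compared with sham in microglia and in astrocytes separately. A gene was called when its Benjamini-Hochberg adjusted p in edgeR's quasi-likelihood test was below 0.1 and its log2 fold change beyond 0.6 in size, the thresholds of the study.

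In microglia, 2 members rose after FPI, Cox4i1 and Cox7a2l, and none fell. These were 2 of the 84 members that passed the count filter, against 2.13% of the 12143 genes tested that were called higher and 0.214% called lower, so the share of members called was near the background. The shift was broader than the calls: 70 of 84 members had a positive log2 fold change (all genes 48.7%), with a median of 0.28 against -0.01 over all genes. At an unadjusted p below 0.05, 15 members were higher (all genes 7.47%) and 0 were lower (all genes 3.87%). Besides Cox4i1 and Cox7a2l these were Atp5k, Ndufa6, Ndufa4, Uqcrh, Ndufa1, Cox7b, Ndufb5, Cox6c, Ndufa2, Atp5b, Ndufb9, Cox5b and Atp5l, and none of those 13 was called after adjustment.

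Cox4i1 (ENSMUSG00000031818, chr8:120668222-120674207, plus strand, GRCm38) encodes the subunit 4 isoform used in most tissues. It stood at 49.98, 58.7, 42.6, 67.2 and 69.5 CPM in the sham microglia libraries and at 96.9, 108, 58.5, 104 and 117 CPM in the FPI microglia libraries. Of the FPI libraries, 4 were above every sham library and only library 3 lay within the sham range. The difference was 1.71-fold (log2 fold change 0.77 ± 0.18 SE, adjusted p = 0.0281 by edgeR's quasi-likelihood test with Benjamini-Hochberg adjustment). Without sham library 3 the adjusted p was 0.106 (log2 fold change 0.68), and the gene was no longer called.

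Cox7a2l (ENSMUSG00000024248, chr17:83501918-83517330, minus strand) encodes a relative of subunit 7a, also called SCAF1, that links complexes III and IV in supercomplexes. C57BL/6 mice are known to carry a shortened form of this protein. Its level was 40.2, 35.9, 39.2, 35.8 and 47.2 CPM in sham microglia and 63.03, 54.2, 44.0, 63.0003 and 88.2 CPM in FPI microglia. Again 4 of 5 FPI libraries exceeded all sham libraries, and library 3 did not. The difference was 1.60-fold (log2 fold change 0.68 ± 0.18 SE, adjusted p = 0.0629, edgeR quasi-likelihood with Benjamini-Hochberg adjustment). This call rested on few libraries, since leaving out any of sham libraries 1 to 4 or FPI libraries 1, 4 or 5 ended it (adjusted p 0.110 to 0.195, log2 fold change 0.50 to 0.69).

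Atp5k, the e subunit of the membrane part of the synthase (its promoter carries the NRF1 and ETS matches above), stood at 4.37, 6.66, 9.07, 6.70 and 10.4 CPM in sham and 15.1, 15.1, 9.76, 14.5 and 17.0 CPM in FPI microglia. FPI library 3 was below the highest sham library and the other 4 were above it. Its log2 fold change of 0.97 ± 0.29 SE had an adjusted p of 0.106 in edgeR's quasi-likelihood test with Benjamini-Hochberg adjustment, just outside the threshold. Ndufa4, the complex IV subunit mentioned above, was at 7.00, 8.05, 4.70, 9.31 and 3.60 CPM in sham and 9.10, 15.7, 9.16, 19.6 and 11.3 CPM in FPI microglia (log2 fold change 0.99 ± 0.32 SE, adjusted p = 0.152).

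Ndufb9, an accessory subunit of the membrane arm of complex I, was the only member whose sham and FPI microglia did not overlap, which 2.17% of all genes did in this direction. It was at 16.4, 21.4, 18.5, 18.6 and 19.3 CPM in sham and 22.4, 28.7, 22.3, 22.8 and 27.3 CPM in FPI microglia. The groups were close, with a log2 fold change of 0.41 ± 0.18 SE and an adjusted p of 0.375 in the same edgeR test. Atp5b, the catalytic beta subunit, was at 135, 129, 125, 118 and 117 CPM in sham and 153, 159, 108, 159 and 195 CPM in FPI microglia (log2 fold change 0.33 ± 0.14 SE, adjusted p = 0.364). Here too FPI library 3 was the exception, below all sham libraries.

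The members with the most negative log2 fold changes by p-value were Uqcrc2, Ndufv1 and Ndufa9, and none was called. Uqcrc2, a core protein of complex III, was at 29.1, 28.4, 45.8, 28.1 and 31.2 CPM in sham and 23.2, 24.1, 21.1, 30.0 and 32.4 CPM in FPI microglia (log2 fold change -0.30 ± 0.20 SE, adjusted p = 0.667), with sham library 3 far above the rest. Ndufv1, which holds the NADH site of complex I, averaged 29.9 ± 6.26 CPM in sham and 25.2 ± 2.36 CPM in FPI microglia, a log2 difference of -0.23 ± 0.18 SE that was not called (adjusted p = 0.738). Ndufa9 averaged 35.4 ± 5.46 and 30.5 ± 8.86 CPM (log2 fold change -0.19 ± 0.20 SE, adjusted p = 0.825).

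The complexes were not alike in the size of their shift in microglia, although the differences between them were not tested. Complex IV had 11 of 12 tested members positive with a median log2 fold change of 0.47, and both called genes. Complex V followed with 16 of 17 positive and a median of 0.33, and complex I with 29 of 36 and 0.28. Complex III had 7 of 8 positive (median 0.24), complex II 3 of 4 (0.13) and the Ndufaf assembly factors 4 of 7 (0.10).

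Of the nuclear-encoded subunits chosen to stand for each complex, only Cox4i1 was called in microglia. Sdha was at 131, 124, 131, 145 and 143 CPM in sham and 157, 136, 118, 148 and 178 CPM in FPI microglia (log2 fold change 0.15 ± 0.13 SE, adjusted p = 0.776), overlapping groups. Ndufs1, the large iron-sulfur subunit of complex I, was at 32.6, 41.7, 43.9, 47.7 and 35.4 CPM and 57.3, 46.7, 48.2, 46.1 and 43.9 CPM (log2 fold change 0.28 ± 0.15 SE, adjusted p = 0.513). For Sdhb, Uqcrc1, Uqcrfs1 (the Rieske protein), Cox5a and Atp5a1 the log2 fold changes lay between -0.09 and 0.35, with adjusted p of 0.773 to 0.907.

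Genes of the same pathway outside the rule behaved unevenly in FPI microglia. Of 12 mitochondrially encoded subunits tested, 2 rose, mt-Nd3 (log2 fold change 0.93, adjusted p = 0.0968) and mt-Nd6 (0.77, adjusted p = 0.0225), and the median was 0.38. Cyc1, a complex III subunit whose symbol lies outside the rule, and the electron carrier Cycs were not called (-0.01 and -0.14). Nor were any of 29 assembly factors of complexes II to V (median -0.11), 8 further complex I assembly factors (median -0.13) or 10 transcriptional regulators (median 0.06). Cytosolic ribosomal protein genes, which like many members have short transcripts, had 22 of 84 called higher and a median of 0.56.

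Other measures moved with the FPI microglia libraries. All 6 astrocyte markers tested had positive log2 fold changes in FPI microglia (1 called, median 0.85), their summed level being 225 to 333 CPM in sham and 277 to 564 CPM in FPI. Without Gfap, the astrocyte marker sum in microglia was 1.53% (sham) and 1.94% (FPI) of its level in sham astrocytes. Oligodendrocyte markers summed to 72.2 to 128 CPM in sham and 130 to 213 CPM in FPI microglia, and microglia markers to 19571 to 24214 and 15469 to 24540 CPM. FPI library 3 had the lowest microglia marker sum and the lowest member share, and without it 9 members were called instead of 2. The share of all genes called without it is not given here, so the 9 are not set against a background. Without sham library 3 none was called (0 of the members tested). The part of these measures and libraries in the result was not tested. Library names fell into an M series (replicates 1 to 3) and a J-A series (replicates 4 and 5), whose meaning is not stated, and the member median was 0.10 within the M series and 0.44 within the J-A series. Cox4i1 was at 0.79 (adjusted p = 0.0817) and 0.74 (adjusted p = 0.129) within them, and Cox7a2l at 0.47 (adjusted p = 0.330) and 0.92 (adjusted p = 0.155), all from edgeR's quasi-likelihood test. Monocyte and macrophage markers summed to 225 to 332 CPM in the sham and 110 to 204 CPM in the FPI libraries of the M series and to 16.7 to 22.5 and 20.3 to 52.6 CPM in those of the J-A series.

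**Figure D2:**
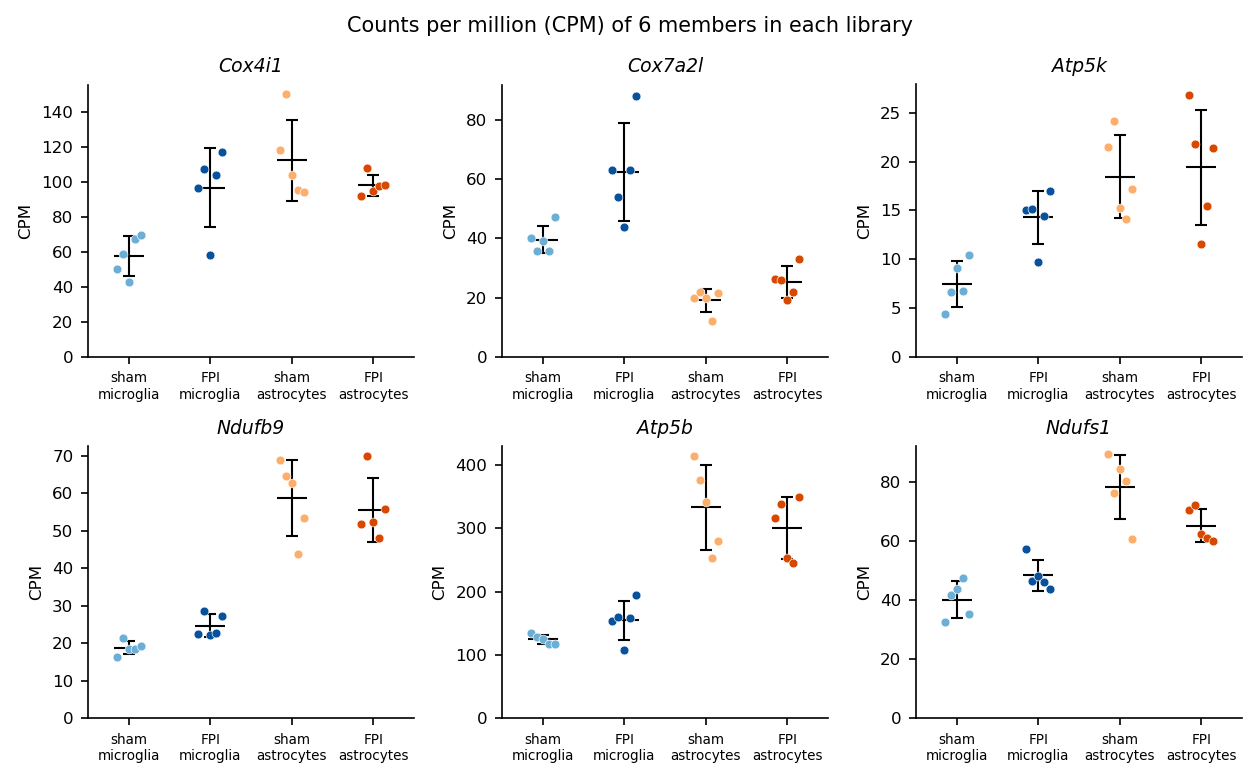
Normalized level (y axis, CPM) of Cox4i1, Cox7a2l, Atp5k, Ndufb9, Atp5b and Ndufs1 in every library, by group (x axis). Points are libraries, and bars give the mean and SD of 5. In FPI microglia Cox4i1 reaches 96.8 ± 22.6 CPM, close to the 98.2 ± 5.93 CPM of FPI astrocytes, and Cox7a2l is the only one of the 6 with higher mean levels in microglia than in astrocytes.

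In astrocytes no member was called after FPI in either direction. This holds for the 87 members that passed the filter in edgeR, DESeq2 also called 0, and the background was low, with 0.00728% of 13741 genes called higher and 0.0% called lower. On simulated counts modeled on the astrocyte libraries, the edgeR test recovered 34 of 102 genes changed by 1 on the log2 scale. A member changed by that much could therefore go uncalled. At an unadjusted p below 0.05, 0 members were higher and 3 were lower (all genes 1.57% and 0.75%), and 62 of 87 log2 fold changes were negative (all genes 50.8%), with a median of -0.08 against -0.01. That median ran from -0.16 (without sham library 4) to -0.02 (without sham library 2) with 1 library left out, moved most also without sham library 5 and FPI libraries 2 to 5, and was -0.16 with FPI libraries 2 and 5, which share an animal number, summed. The 3 were Ndufb2, a membrane arm subunit of complex I, Ndufaf1, an assembly factor of its membrane arm, and Ndufs6, a subunit of its matrix arm.

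Ndufb2 was at 9.16, 6.44, 13.1, 8.11 and 8.97 CPM in sham and 4.02, 3.13, 3.36, 4.46 and 7.03 CPM in FPI astrocytes, so that 1 FPI library lay within the sham range. The log2 fold change was -1.03 ± 0.31 SE with an adjusted p of 0.999 (edgeR quasi-likelihood, Benjamini-Hochberg). Ndufaf1 averaged 9.65 ± 1.81 CPM in sham and 6.08 ± 1.44 in FPI astrocytes (log2 fold change -0.64 ± 0.25 SE), and Ndufs6 averaged 15.3 ± 1.63 and 11.3 ± 1.504 CPM (-0.40 ± 0.18 SE), with overlapping libraries in both cases. Positive changes with the lowest p were found for Cox7a2l (19.0 ± 3.99 and 25.3 ± 5.27 CPM, log2 fold change 0.44 ± 0.21 SE), Atp5s (3.33 ± 0.963 and 4.43 ± 1.03 CPM) and Ndufaf5 (8.33 ± 1.71 and 9.64 ± 2.68 CPM), each with an adjusted p of 0.999. Complex medians ran from -0.36 for the Ndufaf genes to -0.01 for complex III. Microglia markers summed to 39.5 to 134 CPM in the FPI and 29.7 to 59.8 CPM in the sham astrocyte libraries. The 4 markers of oligodendrocyte precursors had positive log2 fold changes in FPI astrocytes (median 2.18, none called), 3 of them at an unadjusted p below 0.05 and 2 without overlap of the groups, and their sum was 67.4 to 1221 CPM in FPI and 119 to 606 CPM in sham. These markers were measured beside the members, and their part in the result was not tested.

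Whether the FPI effect differed between cell types was tested as an interaction over all 20 libraries. None of 87 members was called (adjusted p below 0.1), against 0.199% of 15077 genes. At an unadjusted p below 0.05 there were 14 members, all with the more positive FPI effect in microglia (all genes 3.77% in that direction), and DESeq2 called 1 member, Cox4i1. The interaction term was positive for 75 of 87 members (all genes 51.5%), with a median of 0.38 against 0.02. The lowest p belonged to Cox4i1 (interaction 0.95 ± 0.25 SE on the log2 scale, adjusted p = 0.215), Ndufa4 (1.36 ± 0.45, adjusted p = 0.450) and Ndufs1 (0.53 ± 0.19, adjusted p = 0.516), all by edgeR's quasi-likelihood test with Benjamini-Hochberg adjustment. In astrocytes Cox4i1 was at 118, 150, 104, 95.3 and 94.4 CPM in sham and 92.3, 108, 94.8, 97.5 and 98.3 CPM in FPI.

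**Figure D3:**
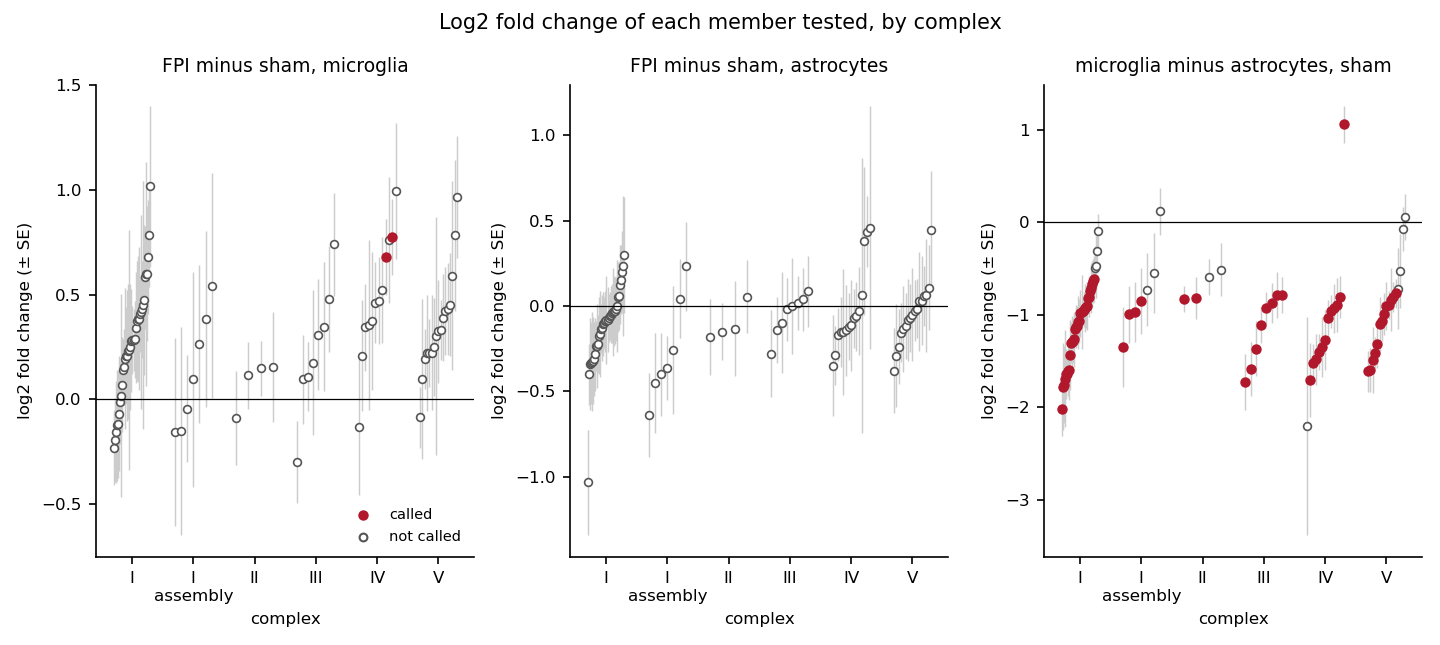
Log2 fold change of every member tested (y axis, with SE bars), ordered within its complex (x axis), for FPI against sham in microglia, FPI against sham in astrocytes, and sham microglia against sham astrocytes. Filled red points passed the threshold, open points did not, and Cox4i2 and Ndufa4l2 are left out of the last panel because of their near-zero microglia counts. Member changes lie mostly above 0 in microglia (70 of 84), mostly below 0 in astrocytes (62 of 87), and the between-cell comparison is largely negative except for Cox7a2l at 1.06.

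Many more members were called between the cell types than between sham and FPI. Sham microglia had lower levels than sham astrocytes for 72 of the 87 members tested and a higher level for 1, Cox7a2l. The background of this comparison was high, with 35.6% of 15077 genes called lower and 25.3% called higher in microglia. The median log2 difference was -0.97 over the members and -0.15 over all genes. Libraries of the cell types did not overlap for 54 members on the lower side (all genes 29.1%) and 1 on the higher side (all genes 23.0%). Cox4i2, Cox6b2 and Ndufa4l2 passed the count filter only with the astrocyte libraries present, and the 54 include Cox4i2 and Ndufa4l2. Among the other 84 members, 70 were called lower and 13 were not called, with a median of -0.97. Sham astrocyte library 4, with the highest oligodendrocyte marker sum, also had the lowest member share of the sham astrocytes (0.296%). The part of the oligodendrocyte and vessel markers of the astrocyte libraries in this difference was not tested. With 1 library left out, 69 to 76 members were called in either direction.

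All 8 complex III members were called lower in microglia (median -1.02), as were 32 of 36 complex I subunits (median -1.03). For complex IV 13 of 15 were lower (median -1.35), for complex V 13 of 17 (median -0.91), for the Ndufaf factors 4 of 7 (median -0.86) and for complex II 2 of 4 (median -0.71). The complex IV count and median include Cox4i2 and Ndufa4l2, and the median also Cox6b2. These passed the count filter only through the astrocyte libraries, so the complex IV median is not on a par with the others. Members not called were Ndufa1, Ndufa6, Ndufa9 and Ndufs8 in complex I, Ndufaf5, Ndufaf6 and Ndufaf7, Sdhb and Sdhd, Cox6b2, and Atp5e, Atp5g2, Atp5s and Atp5sl.

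Ndufb9 had the lowest p of the members and was at 69.05, 64.7, 62.9, 43.7 and 53.6 CPM in sham astrocytes, every library above the 16.4 to 21.4 CPM of sham microglia. That was 3.12-fold lower in microglia (log2 fold change -1.64 ± 0.15 SE, adjusted p = 8.14e-09, edgeR quasi-likelihood with Benjamini-Hochberg adjustment). Atp5b was at 414, 376, 341, 252 and 280 CPM in sham astrocytes and 2.67-fold lower in microglia (-1.41 ± 0.17 SE, adjusted p = 2.38e-07). Ndufv1 was at 80.9, 69.3, 61.6, 59.1 and 62.04 CPM in sham astrocytes against 31.7, 39.8, 28.2, 25.2 and 24.4 CPM in sham microglia, 2.22-fold lower (adjusted p = 8.48e-07). For these genes the lowest astrocyte library stood well above the highest microglia library.

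Among complex IV structural subunits, Cox5b was at 66.8, 82.5, 64.9, 45.7 and 49.0 CPM in sham astrocytes and 18.6, 23.5, 20.4, 16.5 and 28.8 CPM in sham microglia, 2.87-fold lower (adjusted p = 1.46e-06 in the same edgeR test). Uqcrfs1 of complex III, at 60.1 ± 19.8 against 18.1 ± 4.98 CPM (SD, n = 5), was 3.32-fold lower in microglia, and Cox4i1 1.95-fold lower (adjusted p = 9.16e-05). The catalytic and anchoring subunits of complex II differed less: Sdha was lower by a log2 fold change of -0.84 (adjusted p = 2.26e-05) and Sdhc by -0.82 (adjusted p = 0.00326), while Sdhb, at 36.0 ± 4.32 and 54.6 ± 13.1 CPM, stopped at -0.60 (adjusted p = 0.0107) and Sdhd at -0.52 (adjusted p = 0.127). Members near 0 were Atp5sl (12.3 ± 3.05 and 11.8 ± 3.67 CPM, log2 fold change 0.06 ± 0.25 SE), Ndufaf7 (18.4 ± 2.51 and 17.0 ± 5.02 CPM, 0.11 ± 0.26 SE) and Ndufa9 (35.4 ± 5.46 and 37.8 ± 4.71 CPM, -0.10 ± 0.18 SE). At these errors a modest difference in either direction would not have been detected.

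Cox7a2l stood opposite to its complex. It was at 19.9, 21.9, 19.7, 12.1 and 21.5 CPM in sham astrocytes, each below all sham microglia libraries (35.8 to 47.2 CPM). The difference was 2.08-fold in favor of microglia (log2 fold change 1.06 ± 0.20 SE, adjusted p = 9.30e-05 by edgeR's quasi-likelihood test). In FPI it was again the one member called higher, with a log2 difference of 1.31.

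The same comparison between FPI libraries gave 42 members lower in microglia and 1 higher (all genes 35.0% and 25.9%), with a median of -0.62. The 87 members tested again included Cox4i2, Cox6b2 and Ndufa4l2. Of the 42, 40 were also among the 72 called in sham. Cox4i1 and Ndufa4 were at -0.02 and 0.08 in FPI (adjusted p = 0.930 and 0.838), against -0.97 and -1.28 in sham. The change in the difference itself is the interaction given above, for which no member passed the threshold in edgeR.

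Pathway genes outside the rule placed this in context. Cyc1 of complex III and the electron carrier Cycs were lower in sham microglia (log2 fold change -1.49 ± 0.27 and -1.06 ± 0.29 SE, adjusted p = 5.32e-05 and 0.00334 by edgeR's quasi-likelihood test). So were 12 of 13 mitochondrially encoded subunits (median -1.15). Assembly factors of complexes II to V were mixed, with 9 of 30 lower and 2 higher (Lrpprc and Coa4), and so were 8 further complex I assembly factors (2 lower, 2 higher). Ribosomal protein genes went the other way, with 78 of 84 higher in microglia and a median of 1.29. Of 11 transcriptional regulators, Gabpb1 (a GABP subunit, 1.61), Pprc1 (a PGC-1-related coactivator, 1.95) and Yy1 (0.92) were higher and Ppargc1a was lower. Ppargc1a, the coactivator PGC-1alpha, ran from 40.5 to 120 CPM in sham astrocytes and from 0 to 1.93 CPM in sham microglia. Its microglia level was near 0, so its p-value is not given. Only 10 of the 11 regulators passed the count filter in the microglia libraries alone. Nrf1 itself was, in the same order, at 47.1 ± 6.22 and 51.9 ± 11.0 CPM (log2 fold change 0.14, adjusted p = 0.480 by edgeR's quasi-likelihood test).

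Several subunits of complex IV and the c ring of complex V come in isoforms with different tissue use, and their levels are given here by cell type. Cox4i2 (chr2:152754173-152765037, plus strand), the oxygen-responsive isoform of subunit 4, was at 9.43, 24.8, 17.8, 15.2 and 36.9 CPM in sham astrocytes and at 8.24, 25.0, 20.3, 30.9 and 49.4 CPM in FPI astrocytes. No sham microglia library had a count (966 counts summed over sham astrocytes), and 1 FPI microglia library held all 3 counts of that group. Taking 3 counts over the group as the limit for 0, the level was at least 311-fold lower in sham microglia. Per kilobase, Cox4i2 made up 26.1% ± 10.8 (SD, n = 5) of the Cox4i1 and Cox4i2 signal in sham astrocytes and 32.8% ± 12.7 in FPI astrocytes.

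Ndufa4l2 (chr10:127514967-127517154, plus strand), a hypoxia-inducible relative of Ndufa4, was at 6.37, 25.6, 19.0, 24.8 and 48.3 CPM in sham astrocytes and 1.24, 23.4, 21.8, 47.9 and 74.6 CPM in FPI astrocytes. Its spread within a group was wide, with FPI library 1 almost without it. Sham microglia had 3 counts in all against 1148 in sham astrocytes, a ratio of 370 (95% exact interval 126 to 1796, counting error only). It made up 61.4% ± 19.0 of the Ndufa4 and Ndufa4l2 signal per kilobase in sham astrocytes and 1.65% ± 3.70 in sham microglia.

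Both isoforms varied with the blood vessel markers of the astrocyte libraries. Cox4i2 and Ndufa4l2 are known from brain pericytes, the mural cells of small vessels. Which cells in these libraries carried the 2 transcripts was not tested. The summed vessel markers (Cldn5, Pecam1, Flt1, Pdgfrb and Rgs5) were at 580, 1789, 1033, 1598 and 3165 CPM in sham and 234, 1384, 1675, 2111 and 4081 CPM in FPI astrocytes. Over the 10 astrocyte libraries on the log2 scale, r was 0.932 for Cox4i2 (permutation p = 6e-05, adjusted 0.00018 over 6 relations) with rho 0.903 (permutation p = 0.00076, adjusted 0.00228). For Ndufa4l2 r was 0.985 (permutation p = 1e-05, the smallest that 100000 permutations can give, adjusted 6e-05) and rho 0.964 (permutation p = 7e-05, adjusted 0.00042). Without FPI library 1 and sham library 1, the lowest in vessel markers, r was 0.878 and 0.935. With astrocyte markers r was -0.565 for Cox4i2 (permutation p = 0.0908, adjusted 0.136; rho -0.564, p = 0.0954, adjusted 0.143; r -0.935 without sham and FPI libraries 4) and -0.727 for Ndufa4l2 (permutation p = 0.0132, adjusted 0.0264; rho -0.721, p = 0.0227, adjusted 0.0454; r -0.901 without them). With oligodendrocyte markers r was -0.222 and -0.147 (permutation p = 0.540 and 0.686, adjusted 0.648 and 0.686), rho was -0.139 and 0.00606 (permutation p = 0.707 and 1, adjusted 0.848 and 1), and r without sham library 3 and FPI library 5 was -0.142 and 0.0230. All points share their library and its total, 2 FPI libraries share an animal number, and no correlation is given within a condition, which has 5 libraries. Among the sham libraries, Ndufa4l2 stood in the same order as the vessel markers. Vessel markers were not alone in this. Markers of oligodendrocyte precursors, like both isoforms, were lowest in FPI library 1 and highest in FPI library 5. They summed to 119, 256, 199, 355 and 606 CPM in sham and 67.4, 302, 324, 580 and 1221 CPM in FPI astrocytes. The relation of the 2 isoforms to these markers was not tested. Vessel markers in the microglia libraries summed to 51 to 78 CPM.

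**Figure D4:**
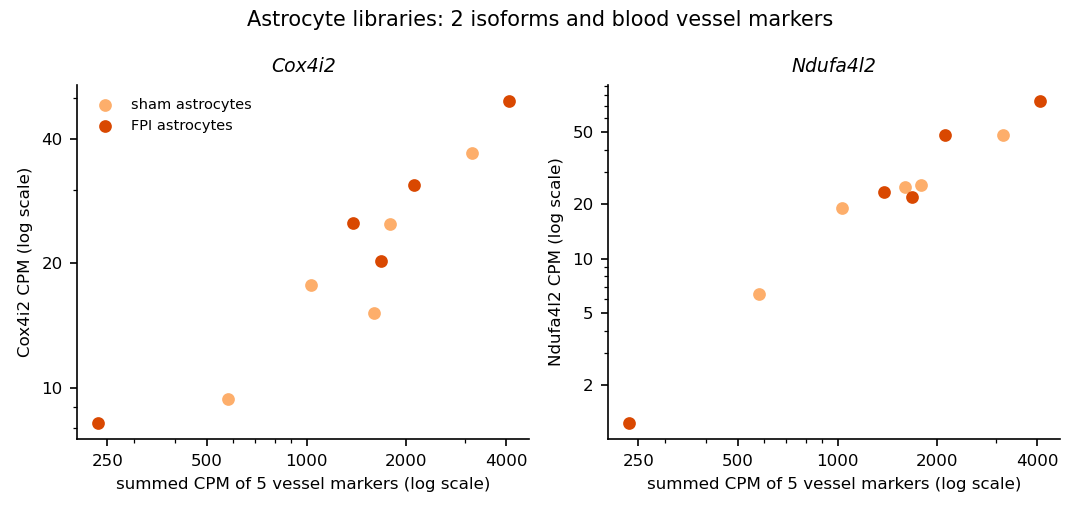
Level of Cox4i2 (left) and Ndufa4l2 (right) in each of the 10 astrocyte libraries (y axis, CPM, log scale) against the summed level of 5 blood vessel markers (x axis, CPM, log scale), colored by sham and FPI. Both genes are higher where the vessel markers are higher, from FPI library 1 (234 CPM) to FPI library 5 (4081 CPM), with r of 0.932 and 0.985 on the log2 scale. Markers of oligodendrocyte precursors, not shown, were also lowest in FPI library 1 and highest in FPI library 5.

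Other isoforms divided less sharply. Cox7a2l held 77.1% ± 2.97 of the signal per kilobase of the 3 Cox7a genes in sham microglia and 84.8% ± 4.08 in FPI microglia, against 45.4% ± 7.69 and 51.3% ± 5.40 in sham and FPI astrocytes. In sham microglia the ubiquitous Cox7a2 was lower than in sham astrocytes (log2 fold change -0.93, adjusted p = 0.00411), so within this family the genes went opposite ways. For the c ring, which 3 genes encode for an identical mature protein, Atp5g3 held 67.5% ± 6.13 in sham astrocytes and 44.5% ± 8.97 in sham microglia, Atp5g2 held 25.1% ± 6.51 and 47.0% ± 9.29, and Atp5g1 held 7.42% ± 2.23 and 8.51% ± 2.64. Atp5g3 was lower in sham microglia (log2 fold change -1.60, adjusted p = 5.16e-06, edgeR with Benjamini-Hochberg adjustment), Atp5g1 was lower by -0.84 (adjusted p = 0.0374), and Atp5g2 was at -0.07 (adjusted p = 0.805).

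Isoforms known from heart and skeletal muscle were at the edge of detection. Cox6a2 had 58 counts in sham and 50 in FPI microglia but 3 and 0 in sham and FPI astrocytes, and its sham microglia levels of 4.75, 0.220, 0.672, 1.02 and 0.379 CPM came mostly from library 1. Cox7a1 had 32 and 31 counts in sham and FPI astrocytes and 1 and 6 in microglia. Cox8b had 4 and 7 counts in astrocytes and 12 and 0 in microglia, the testis isoform Cox7b2 14 and 5 in astrocytes and 0 in microglia, and Cox8c at most 2 in any group. These genes, with Atp5l2, did not pass the filter and were not tested. The partner isoforms Cox6a1, Cox6b1, Cox7b and Cox8a were all lower in sham microglia, with log2 fold changes of -1.04, -0.90, -1.35 and -1.48 (adjusted p 8.27e-05 to 0.0107).

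**Figure D5:**
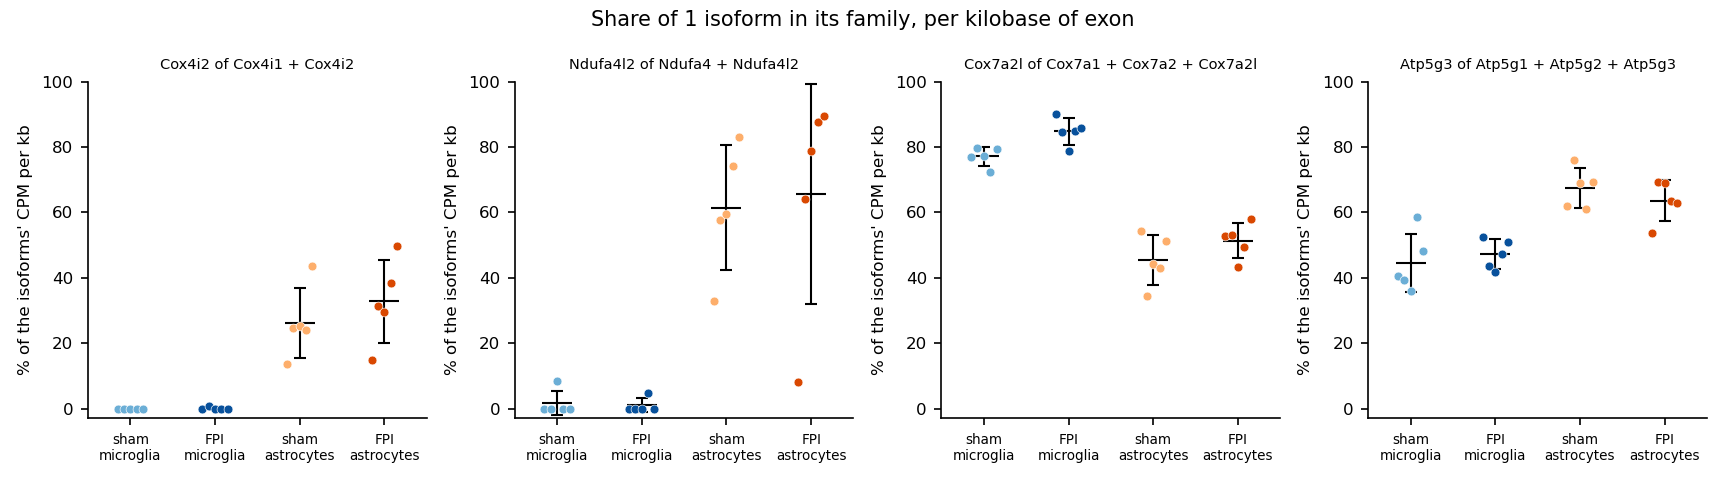
Share of Cox4i2, Ndufa4l2, Cox7a2l and Atp5g3 in the summed level of their isoform family (y axis, percent of CPM per kilobase), by group (x axis). Points are libraries, and bars give the mean and SD of 5. Cox4i2 and Ndufa4l2 are near 0 in microglia and at 26.1% and 61.4% on average in sham astrocytes, whereas Cox7a2l has the larger share in microglia (77.1% against 45.4% in sham).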

How the data were processed

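Gene expression was measured by total RNA-seq of FACS-sorted cells, with libraries made by the SMARTer Stranded Pico kit, which records strand. Per the labels and the study's methods, the authors aligned reads to mm10 (GRCm38.p6) with HISAT2 2.1.0 and deposited whole-number counts per Ensembl gene, and the submitters' processing notes name featureCounts. For its own tests the study used salmon estimates imported with tximport, and which of these routes made the deposited counts is not given in the sources used here. How reads matching several places were counted is not given in the sources used here, and many members have processed pseudogenes that could take or lend reads. The combined table and the 20 per-library files held the same values. Mean depth per group lay between 7873730 and 9381590 counts on genes.

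From these counts, edgeR 4.0.16 in R 4.3.3 (filterByExpr, TMM, quasi-likelihood F test, Benjamini-Hochberg adjustment over all genes tested) compared FPI with sham within microglia and within astrocytes in separate fits, as the study did, and cell types and the interaction in 1 fit of all 4 groups. Calls used adjusted p below 0.1 and a log2 fold change beyond 0.6 in size (no fold limit for the interaction). Levels are CPM scaled by TMM over all libraries; levels per kilobase use the union of exons in GENCODE M21. Replicates are separate animals except where stated. The labels do not say what a replicate number marks. Deviations of same-numbered sham and FPI libraries correlated above 0.1 in no microglia pair and in 4 of 5 astrocyte pairs, so not every pair did and numbers were not used to pair. Alternatives were RLE factors or none, 2 count filters, robust variance, DESeq2 1.42.0, a block for replicate number, leaving out each library, name series, summing the FPI astrocyte libraries with 1 animal number, and leaving out animals that gave both cell types. Scripts were tested on simulated counts. Promoter windows came from RefSeq. Relations over libraries used permutation tests, two-sided. Counting intervals and the limit of 3 counts cover counting error only. The members, the lists of other pathway genes and markers, and the tests were chosen with earlier results of these data known. Genes named with full values were the called or lowest-p 3 in each direction (5 lower between cell types), subunits chosen to stand for each complex, and the isoform families.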

Additional observations from a re-analysis of the deposited data

Results flagged for a closer look

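Dixon's criterion was applied to 166 groups of 5 libraries, for levels of named members and for shares of counts by complex. In 8 of them, all levels of named members, 1 library stood apart from the other 4. Chance alone would mark about 1 group in 20. Uqcrc2 was at 45.8 CPM in sham microglia library 3 (others 28.1 to 31.2), and Sdhb at 43.5 CPM in sham microglia library 4 (others 32.6 to 35.4). Atp5sl was at 17.6 CPM in sham microglia library 5 (others 9.74 to 11.6), and Cox6a2 at 4.75 CPM in sham microglia library 1 (others 0.220 to 1.02). In FPI microglia, Ndufs6 was at 18.7 CPM in library 2 (others 2.45 to 6.79) and Uqcrfs1 at 38.3 CPM in library 5 (others 16.1 to 19.3). Atp5g1 was at 15.8 CPM in FPI astrocyte library 1 (others 8.72 to 10.1). Cox7a2l was at 12.1 CPM in sham astrocyte library 4, below the others (19.7 to 21.9). Every one of these libraries entered the tests reported above, and the cause of each value was not tested.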

How the results depend on the processing

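The number of members that rose in FPI microglia depended on the processing and on single libraries. Against 2 in the reported fit it was 1 at an adjusted p below 0.05, 1 in the fit of all 20 libraries, 1 within the M series and 1 within the J-A series of library names, 4 with genes of at least 1 count or with at least 10 counts in every library, and 5 with DESeq2 (Cox4i1, Cox7a2l, Atp5k, Ndufa4 and Ndufa6). Leaving out 1 library gave 0 (without sham library 3) to 9 (without FPI library 3), and leaving out sham library 1, 2 or 4 or FPI library 4 or 5 gave 1. The share of all genes called in these alternative fits, and in those of the interaction, is not given here. The counts are therefore not set against a background. On simulated microglia counts with known changes, drawn with edgeR's own estimates of spread, DESeq2 made 34 false calls and edgeR 10. Of 98 genes changed by 1 on the log2 scale, DESeq2 recovered 64 and edgeR 60. The positive median remained, at 0.21 to 0.40 with 1 library left out. In astrocytes the count was 0 in every fit run. For sham microglia against sham astrocytes, 73 were called in the reported fit and 69 to 76 with 1 library left out. In this comparison the median of all genes was -0.15, -0.24 with RLE factors and -0.29 with DESeq2, which also tested more genes, and the member medians were -0.97, -1.07 and -1.06. The interaction was called for 0 members, 1 with DESeq2 (Cox4i1), and 0 to 1 with 1 library left out (Cox4i1 without FPI microglia library 3). Deviations of same-numbered sham and FPI libraries correlated at -0.09 to 0.08 in microglia. In astrocytes they correlated at 0.29 to 0.53 in 4 of 5 pairs and at -0.0043 in the other, and 3 of 5 correlated best with their own number, a hint from the data, not the design. With a block for replicate number, 2 members were called in microglia, 0 in astrocytes, 75 between cell types and 0 for the interaction.

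Some directions turned, all of them in values that were not called. Within the J-A series, Atp5a1 was at 0.15, Ndufa9 at 0.12, Ndufv1 at 0.15 and Uqcrc2 at 0.12, and within the M series Cox5a was at -0.081. With 1 library left out, Atp5a1 ran from -0.17 to 0.020 and Uqcrfs1 from -0.017 to 0.43. Between cell types, Atp5g2 was at 0.0043 without a normalization factor and ran from -0.13 to 0.069 with 1 library left out. Atp5sl was at -0.023 with RLE factors, -0.083 with at least 10 counts in every library, -0.029 with DESeq2 and -0.13 without the astrocyte libraries of animals that gave both types, and ran from -0.13 to 0.23 with 1 library left out. Ndufaf7 was at -0.026 with at least 10 counts in every library and -0.016 without those astrocyte libraries. The cause was not tested.

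Shares of counts depend on the total they are taken from. Of protein-coding counts without mitochondrial and ribosomal protein genes, in the order sham microglia, FPI microglia, sham astrocytes and FPI astrocytes, all members held 0.276%, 0.322%, 0.574% and 0.555%. Complex I held 0.0892%, 0.102%, 0.185% and 0.176%, its assembly factors 0.00660%, 0.00688%, 0.0105% and 0.00902%, and complex II 0.0300%, 0.0317%, 0.0531% and 0.04996%. Complex III held 0.0260%, 0.0293%, 0.0564% and 0.0560%, complex IV 0.0349%, 0.0505%, 0.0803% and 0.0797%, and complex V 0.0889%, 0.101%, 0.188% and 0.184%. The order of the groups was the same with both totals. With longest transcripts in place of the union of exons, Cox4i2 made up 16.1% of its pair in sham and 21.1% in FPI astrocytes. Of the group levels per kilobase of the named members, 77 moved by more than their SD between libraries and 83 did not.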
